A study of Rattus norvegicus with 4 samples.

Results

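The transporters described here are 8 genes that move chloride, bicarbonate, sodium and potassium across airway epithelial cells. They were taken as every probe set annotated to exactly 1 gene symbol, that symbol being Slc12a2, Clcn3, Slc4a2, Slc4a4, Scnn1a, Atp1b1, Fxyd3 or Kcnq1. They are 8 of the 10411 genes that the array measures in this way, and 13 of its 15923 probe sets, from 1 to 3 for each gene. The cells were RTEC11, a tracheal epithelial line from rats transgenic for the large T-antigen of simian virus 40 in a temperature-sensitive form, a viral protein that keeps cells dividing at low temperature and loses its activity at high temperature. One group was kept for 3 days at the permissive temperature of 33 °C and the other for 3 days at the nonpermissive temperature of 39 °C, with 2 arrays each, and both groups carry the transgene. RTEC11 is 1 immortalised line grown in culture, and temperature and T-antigen activity cannot be told apart. The labels do not say whether the 2 samples of a group were grown as separate cultures. The p-values thus cover no more than the spread between these samples, largely pooled over probe sets of like intensity. That spread may be technical.

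Airway epithelium sets the volume and pH of its surface liquid by moving salt, and water follows. Chloride and bicarbonate enter the cell from the blood side through cotransporters and exchangers and leave through channels on the airway side, while sodium is taken up from the airway side through the epithelial sodium channel. The sodium pump, a P-type ATPase with a catalytic alpha and a glycosylated beta subunit, keeps cell sodium low, and potassium channels return the potassium that the pump brings in and hold the membrane voltage that drives anions out.

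Epithelial identity was checked first. All 5 markers of simple epithelium (Krt8, Krt18, Krt19, Cdh1 and Epcam) lay above the limit for dim probe sets, a mean log2 value of 6.60 or an intensity of 81.1. Of the basal markers Krt14 and Krt15 did, whereas Krt5, Tp63 and Ngfr were dim. Krt15 had a mean of 6.52 at 33 °C and passed the limit only through its values at 39 °C. Of 16 measured markers of fibroblasts, smooth muscle, endothelium and leukocytes 3 were above the limit (Col3a1, Acta2 and Des). The summed intensity of the 6 fibroblast markers was 161.1 to 191.6 at 33 °C and 280.6 to 394.0 at 39 °C, and that of the 3 smooth muscle markers 311.5 to 416.5 and 462.8 to 559.2. Of the smooth muscle markers, Des rose by 0.83 (limma adjusted p 0.0232), whereas Acta2 was at -0.32 and was not called. Des read 57.7 and 81.5 at 33 °C, with a mean log2 value of 6.47. It too passed the limit only through its values at 39 °C. Myh11, dim on average, read 14.8 and 23.5 at 33 °C and 132 and 111.7 at 39 °C. The endothelial and leukocyte markers were all dim. The fibroblast rise lay in Col3a1 alone, a fibrillar collagen gene, with a log2 change of 1.61 (limma adjusted p 0.000432). Col3a1 read 59.1 and 47.9 at 33 °C, both dim, and passed the limit only through its values at 39 °C. The other 5 fibroblast markers together read 113.2 to 132.5 at 33 °C and 107.8 to 130.5 at 39 °C. Secretory airway markers moved further. Scgb1a1, the secretoglobin of club cells, read 38.7 and 58.3 at 33 °C and 646.8 and 534.7 at 39 °C, a log2 change of 3.15 (limma adjusted p 8.17e-07). The membrane mucin Muc1 rose by 1.30 (limma adjusted p 0.000642), and both had passed the dim limit only through their values at 39 °C. Their summed intensity was 106.3 to 120.4 at 33 °C and 729.0 to 854.3 at 39 °C. The part of all these markers in the results below was not tested. Ascl3, a transcription factor of ionocytes, the airway cells rich in chloride channels, was at intensities of 6.5 to 12.8, and Foxj1 of ciliated cells was dim as well.

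Of the 13 transporter probe sets, 10 passed the limit for dim values and were tested. Of these, 5 were higher at 39 °C and 2 lower (limma, adjusted p under 0.05 over the 9520 probe sets tested), against 47.2% called among all probe sets tested, 22.5% higher and 24.7% lower. By gene, Slc12a2, Slc4a4, Atp1b1 and Kcnq1 rose, Slc4a2 and Fxyd3 fell, Clcn3 was not called and Scnn1a was dim in both of its probe sets. The Slc4a4 probe set cleared the limit only through its values at 39 °C, so it had to differ to be tested at all. The median log2 change of the 10 was 0.34, against -0.03 over all probe sets tested. In 8 of the 10 the temperatures did not overlap, against 74.2% of all probe sets tested, so separation of this kind was common on these arrays. With so many of the array's probe sets called, the count of 7 in 10 describes these probe sets and sets nothing apart about transport genes.

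**Figure D1:**
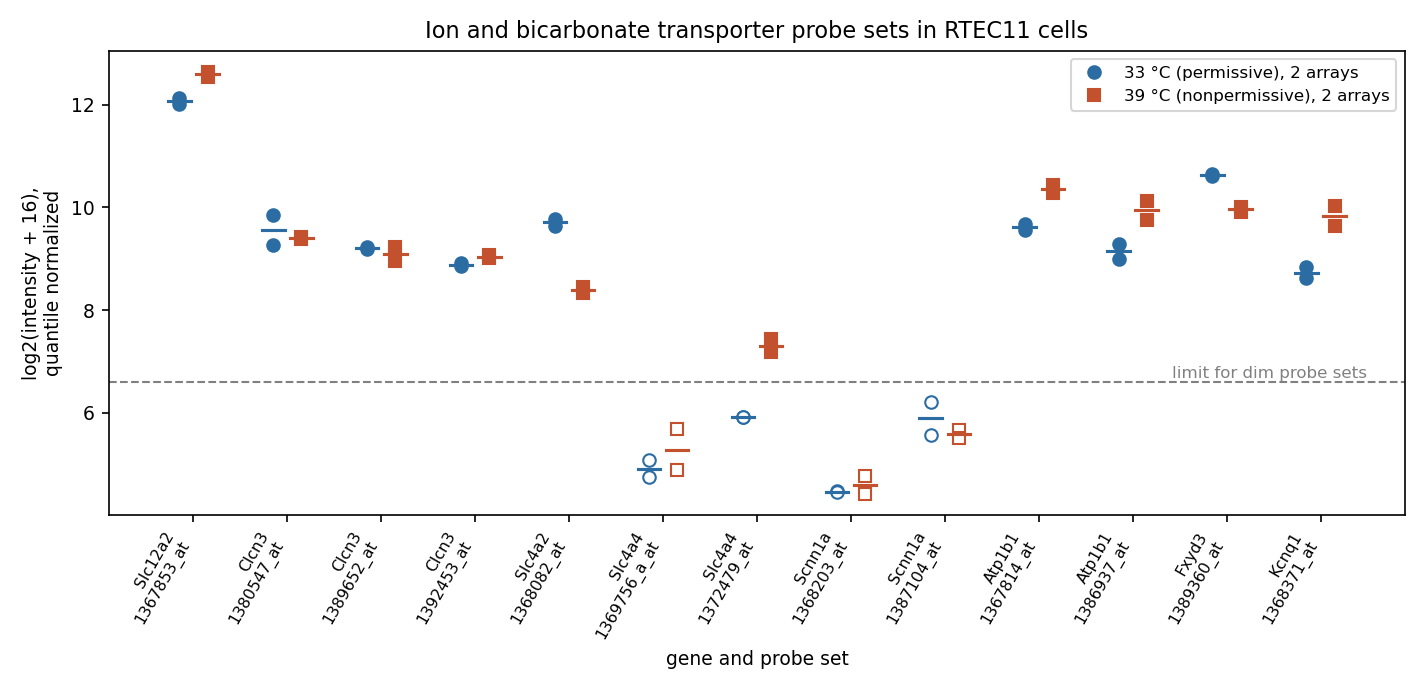
Level of each of the 13 transporter probe sets on each array, as quantile-normalized log2(intensity + 16), with circles for the 2 arrays at 33 °C, squares for the 2 at 39 °C and short bars for group means. Open symbols mark groups in which both arrays lie under the limit for dim probe sets (dashed, 6.60). Both Scnn1a probe sets and Slc4a4 1369756_a_at are open throughout, and Slc4a4 1372479_at crosses the line from 33 °C to 39 °C.

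Chloride uptake from the blood side runs through Slc12a2, the sodium-potassium-chloride cotransporter that loads secretory epithelial cells with chloride. Its intensity was 4640.1 and 4268.1 on the 33 °C arrays and 6120.6 and 5750.1 on the 39 °C arrays. Both nonpermissive arrays were above both permissive ones. The log2 level went from 12.07 ± 0.09 to 12.59 ± 0.06 (SD, n = 2 each), a rise of 0.52 ± 0.09 (SE) or 1.44-fold, with a limma adjusted p of 0.000464. This rise depended on how the arrays were scaled. It was 0.41 on the deposited scale, 0.26 after subtraction of every array's own median (median centring) and 0.03 with each array shifted to the level of its poly-A control probe sets (spike-in scaling), where it was no longer called (limma adjusted p 0.825).

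Clcn3 encodes a chloride-proton exchanger that acts mainly in the membranes of endosomes and not at the cell surface. Its 3 probe sets gave small differences of mixed sign. Probe set 1380547_at read 582.8 and 899.3 at 33 °C and 660.2 and 681.6 at 39 °C. One permissive array was below and the other above both nonpermissive arrays. Its log2 change was -0.16, with a 95% interval of -0.53 to 0.21. This value turned on 1 array, being -0.46 and called lower without permissive replicate 1 (limma adjusted p 0.0174) and 0.14 without permissive replicate 2.

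Probe set 1389652_at of Clcn3 read 553.6 and 572.1 at 33 °C and 494.9 and 599.0 at 39 °C, again overlapping, with a log2 change of -0.12 (95% interval -0.42 to 0.17). Probe set 1392453_at read 432.2 and 451.3 against 512.0 and 536.8. It alone of the 3 separated the temperatures, with a log2 change of 0.15 (95% interval -0.12 to 0.43, limma adjusted p 0.342). None of the 3 was called. The limma intervals leave room for a change of up to 1.35-fold upward in 1392453_at. In 1380547_at they leave room for a level at 39 °C as low as 0.691 of that at 33 °C. They lean on the spread of other probe sets. The SD of 1380547_at at 33 °C was 0.42, so its own arrays bound its change less tightly. With spike-in scaling, 1380547_at and 1389652_at were called lower (-0.49 and -0.43) and 1392453_at turned to -0.14, so no direction can be given for Clcn3.

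The called probe sets of the bicarbonate transporters moved in opposite directions, but that of Slc4a4 was tested only through its values at 39 °C. Slc4a2 encodes an anion exchanger that swaps intracellular bicarbonate for chloride, and Slc4a4 encodes the electrogenic sodium-bicarbonate cotransporter that carries bicarbonate into secretory cells from the blood side. Slc4a2 had the largest fall among the 8 genes. Its intensity was 851.6 and 767.7 at 33 °C and 345.0 and 317.2 at 39 °C. Both permissive readings were more than 400 units above the nonpermissive ones. The log2 level went from 9.71 ± 0.10 to 8.38 ± 0.09 (SD, n = 2 each). This was a fall of 1.32 ± 0.13 (SE) on the log2 scale, 2.50-fold lower at 39 °C, with a limma adjusted p of 1.19e-05. It was called lower under every alternative run, at log2 changes between -1.63 and -1.21.

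Slc4a4 was read by 2 probe sets. In 1372479_at the intensity was 41.9 and 42.9 at 33 °C and 139.8 and 164.5 at 39 °C. Both permissive readings were dim and both nonpermissive ones were above the limit. The log2 level went from 5.92 ± 0.01 to 7.31 ± 0.18 (SD, n = 2 each), a difference of 1.39 ± 0.27 (SE) with a limma adjusted p of 0.00132. The mean over the 4 arrays was 0.01 above the dim limit on the log2 scale. Because the starting level was dim, the size depends on the constant added to each intensity, being 0.93 with 64 added and 1.66 with 1 added and no dim filter. With no dim filter, the call was lost when nonpermissive replicate 1 (log2 change 1.52, limma adjusted p 0.0686) or nonpermissive replicate 2 (1.26, limma adjusted p 0.115) was left out. The other Slc4a4 probe set, 1369756_a_at, read 10 and 15.8 at 33 °C and 40.6 and 13.9 at 39 °C. All 4 of its readings were dim and the groups overlapped, so it gives no second reading of the rise.

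RefSeq promoter windows on the GRCr8 build, from 250 bases before to 50 after the annotated start, were held for 4 of the 8 genes: Slc12a2, Clcn3, Slc4a2 and Slc4a4. Those of the 3 genes called are shown because the annotated windows of genes that rose and of a gene that fell had a like composition. Which start sites these cells use was not measured. They are written 5′ to 3′ along the gene's strand, and capitals mark CpG dinucleotides. The windows are chr18:53546083-53546382 (plus strand) for Slc12a2, chr4:11645353-11645652 (minus strand) for Slc4a2 and chr14:19468233-19468532 (minus strand) for Slc4a4.
Slc12a2: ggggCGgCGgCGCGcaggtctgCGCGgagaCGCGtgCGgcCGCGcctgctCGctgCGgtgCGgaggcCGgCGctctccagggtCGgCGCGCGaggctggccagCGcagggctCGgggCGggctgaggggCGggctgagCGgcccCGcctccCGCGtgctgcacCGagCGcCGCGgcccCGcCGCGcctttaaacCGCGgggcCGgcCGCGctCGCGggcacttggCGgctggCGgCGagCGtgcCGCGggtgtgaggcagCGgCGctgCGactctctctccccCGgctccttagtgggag
Slc4a2: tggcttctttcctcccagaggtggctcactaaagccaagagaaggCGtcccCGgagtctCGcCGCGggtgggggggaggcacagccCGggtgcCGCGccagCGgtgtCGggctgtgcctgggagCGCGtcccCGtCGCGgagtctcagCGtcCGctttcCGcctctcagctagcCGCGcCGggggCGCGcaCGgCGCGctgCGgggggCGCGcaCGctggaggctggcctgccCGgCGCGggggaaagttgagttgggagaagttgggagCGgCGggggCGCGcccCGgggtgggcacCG
Slc4a4: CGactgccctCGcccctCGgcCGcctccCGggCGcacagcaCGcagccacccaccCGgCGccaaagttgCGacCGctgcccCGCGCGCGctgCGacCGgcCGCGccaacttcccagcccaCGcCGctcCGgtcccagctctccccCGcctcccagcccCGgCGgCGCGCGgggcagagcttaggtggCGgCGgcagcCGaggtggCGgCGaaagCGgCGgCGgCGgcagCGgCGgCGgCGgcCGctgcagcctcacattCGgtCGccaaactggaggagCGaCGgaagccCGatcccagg
The windows hold 52, 39 and 47 CpG dinucleotides in this order, against a median of 7 over 33469 rat promoter windows of the same length. That places them above 99.5%, 96.2% and 98.7% of the windows, with GC contents of 80.7%, 75.0% and 78.0% against a median of 51.7%. Clcn3 has 2 annotated windows, with 33 and 9 CpG dinucleotides. CpG density was high in the windows of Slc4a2, which fell, and of Slc4a4 and Slc12a2, which rose. Any part of it in the changes was not tested. A search on both strands for the GC box GGGCGG, which 33.1% of all windows hold, found it 3 times in the Slc12a2 window and not in the Slc4a2, Slc4a4 or Clcn3 windows. The CCAAT box (CCAAT, 37.5% of windows) was found once in 1 Clcn3 window. The TATA box (TATAAA, 14.2%) and the heat shock element (GAANNTTC, 8.59%) were found in none of these windows. None of the 4 motifs shares letters with another match in these windows.

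Sodium entry on the airway side depends on the epithelial sodium channel, of which Scnn1a encodes the alpha subunit. Probe set 1368203_at read 5.7 and 5.6 at 33 °C and 6.3 and 11.7 at 39 °C. Probe set 1387104_at read 55.0 and 30.0 against 39.9 and 28.8. All 8 readings were dim and the temperatures overlapped in both probe sets. Without a dim filter their log2 changes were 0.14 (95% interval -0.52 to 0.80) and -0.30 (95% interval -1.15 to 0.55), neither of them called. A dim reading does not show that the transcript is absent, and no detection calls are in the table used here. The gamma subunit gene Scnn1g was dim in both of its probe sets, and the beta subunit gene Scnn1b, just above the limit, had a log2 change of 0.13 (limma adjusted p 0.688) that turned to -0.11 with spike-in scaling.

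The sodium pump and its regulator moved apart. Atp1b1 encodes the beta subunit that folds the pump and carries it to the cell surface. In probe set 1367814_at its intensity was 795.4 and 732.6 at 33 °C and 1231.3 and 1372.9 at 39 °C. In 1386937_at, annotated to the same accession, it was 479.4 and 595.0 against 861.1 and 1111.5. Both probe sets separated the temperatures, and their changes were close. They were 0.74 ± 0.11 (SE), or 1.67-fold, with a limma adjusted p of 0.000282, and 0.80 ± 0.15 (SE), or 1.74-fold, with a limma adjusted p of 0.00111. Because they read the same transcript in the same RNA they count as 1 gene that rose. With spike-in scaling the changes were 0.37 and 0.47, still called. The related beta subunit gene Atp1b3 was at 10.41 and 10.40 on the log2 scale at the lower and higher temperature and was not called, except with spike-in scaling (-0.40).

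Fxyd3 encodes a small membrane protein of the FXYD family that binds the sodium pump and alters its affinity for ions. Its intensity was 1608.4 and 1543.2 at 33 °C and 954.0 and 1029.1 at 39 °C. Each permissive reading exceeded each nonpermissive one by over 500 units. The log2 level went from 10.63 ± 0.03 to 9.96 ± 0.07 (SD, n = 2 each), a fall of 0.67 ± 0.10 (SE) or 1.59-fold, with a limma adjusted p of 0.000307. It was called lower under all alternatives, at -1.04 with spike-in scaling and between -0.81 and -0.62 in the others.

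Kcnq1 encodes a voltage-gated potassium channel that can join with Kcne subunits and can act on the blood side of secretory epithelia. It read 424.6 and 363.9 at 33 °C and 789.3 and 1033.7 at 39 °C. The arrays at 39 °C differed from each other by more than those at 33 °C, yet both lay above them. The log2 level went from 8.73 ± 0.15 to 9.83 ± 0.27 (SD, n = 2 each), a rise of 1.11 ± 0.15 (SE) or 2.15-fold, with a limma adjusted p of 0.000119. The call held under all alternatives, at changes of 0.79 to 1.29. Kcne1, Kcne2 and Kcne3, its partner subunits, were dim in every probe set.

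The sizes of the changes depended on the scaling. The median log2 change of all 9520 probe sets came to -0.03 with quantile normalization, 0.03 on the deposited scale, -0.12 with median centring of each array and -0.35 with each array scaled to its spike-in controls. Rises made up 47.7%, 53.8%, 37.7% and 19.8% of the calls, in that order. Relative to that median, which is a fixed shift for the last 3, Slc12a2 was at 0.38 in each of them and at 0.56 after quantile normalization. Kcnq1 was at 1.13 and 1.14, Slc4a2 at -1.28 and -1.29, and Fxyd3 at -0.69 and -0.64, by the same pair of measures. The signs for Slc4a2, Fxyd3, Kcnq1, Atp1b1, Slc4a4 and Slc12a2 were the same under all 4 scalings, with Slc12a2 not called in the last.

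**Figure D2:**
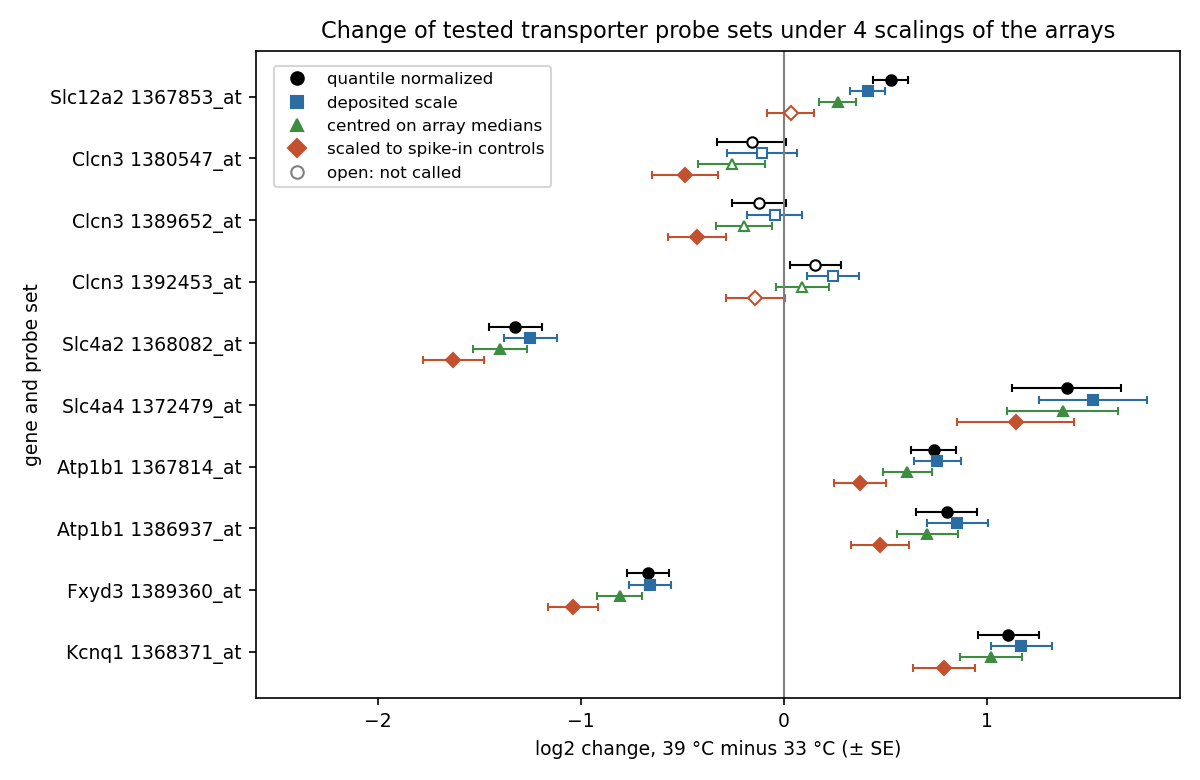
Log2 change from 33 °C to 39 °C of the 10 tested transporter probe sets (horizontal axis, bars are SE from limma) under 4 scalings of the arrays, with filled symbols where the adjusted p was under 0.05. Slc4a2 and Fxyd3 lie left of 0 and Slc4a4, Atp1b1 and Kcnq1 right of it under every scaling, while Slc12a2 reaches 0.03 with spike-in scaling.

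The surrounding transport genes came from a list of 227 genes in 8 roles, of which 177 had a probe set. Of 239 probe sets, 78 passed the dim limit, 32.6% against 60% of all probe sets on the array. With the 8 genes left out, 21 of 68 tested probe sets rose and 11 fell, 47.1% called against 47.2% for all, with a median log2 change of 0.11. Of 24 other probe sets of bicarbonate and anion exchangers and carbonic anhydrases 17 were dim, and the 7 tested read 4 genes. Of these 7 probe sets 5 rose, and none of the tested ones but Slc4a2 fell. A probe set of the sulfate-anion exchanger Slc26a1, picked out after its values were seen, read 91 and 95.9 at 33 °C and 39 and 33.8 at 39 °C. It was left out as dim on average, and with no dim filter it was called lower (-1.19, limma adjusted p 0.0281). The 5 that rose read 3 genes, 2 probe sets each for the carbonic anhydrases Car5b, of mitochondria, at 1.28 and 1.02, and Car2, of the cytosol, and 1 for the sodium-bicarbonate cotransporter Slc4a7 at 1.12. A second Slc4a7 probe set, at 0.60, was not called, but was on the deposited scale (0.75), with no intensity trend and without permissive replicate 1 (0.77).

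Among chloride channels 4 of 16 other probe sets rose and 5 fell, led by Clic5 (2.57) and the GABA receptor subunit Gabrp (1.71), and by Clic4 (-1.03) and Lrrc8d, a subunit of volume-regulated anion channels (-0.74). Clic5 and Gabrp were dim at 33 °C and passed the limit only through 39 °C, and with 64 added they were at 2.02 and 1.22. Further Clic4 probe sets were at -0.44, which stopped being called when permissive replicate 1 (-0.37) was left out or nonpermissive replicate 2 was (-0.32), and at -0.14, which was called only with median centring (-0.31) and spike-in scaling (-0.54). Beside Slc12a2, the potassium-chloride cotransporter Slc12a7 rose (0.67). Slc12a9 was at -0.41, a call that was lost on the deposited scale (-0.29), with no dim filter (limma adjusted p 0.0975), with no intensity trend (limma adjusted p 0.0505), when permissive replicate 1 was left out (-0.29) and without nonpermissive replicate 1 (-0.45) or 2 (-0.37). Of 3 other tested probe sets of pumps and FXYD proteins 1 was called, that of Fxyd5, another FXYD protein of epithelia, which fell by 1.07 ± 0.17 (SE), as Fxyd3 did.

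Among 89 other potassium channel probe sets 7 passed the dim limit, and Kcnk5, a two-pore domain channel, rose (1.0) while Kcnmb4, a beta subunit of calcium-activated channels, fell (-0.67). The Kcnk5 call was lost without nonpermissive replicate 2 (0.84). Among 24 other probe sets for sodium entry and sodium-proton exchange 7 passed the dim limit. Of these 2 rose and 1 fell, 42.9% called against 47.2% of all probe sets tested. The scaffold gene Nherf1 was at 0.67, a call that was lost with spike-in scaling (0.21), with a second probe set at 0.28 that was called only on the deposited scale (0.38). Slc9a8 was at 0.57, and its call was lost with that scaling (0.33), with no dim filter, without permissive replicate 1 (0.45) and without nonpermissive replicate 1 (0.47) or 2 (0.66). Nherf2, a scaffold gene like Nherf1, fell (-0.90), with a second probe set at -0.17 that was not called and turned to 0.11 without permissive replicate 2. The 1 aquaporin probe set tested, of Aqp1, was at -0.60 and was not called, but it was called lower without nonpermissive replicate 2 (-1.13) and with spike-in scaling (-0.81), and it was at -0.07 without nonpermissive replicate 1. Other aquaporin probe sets, picked out after their values were seen, were dim on average but above the limit at 1 temperature. A second one of Aqp1 read 124.7 and 90.5 at 33 °C and 24.8 and 41.2 at 39 °C. With no dim filter it was called lower (-1.46, limma adjusted p 0.0274), while Aqp5 (1.93, limma adjusted p 0.00694) and Aqp3 (1.31, limma adjusted p 0.0489) were called higher.

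Of 24 probe sets of regulators 8 rose and 2 fell, 41.7% called against 47.2% of all probe sets tested. The largest rises and the falls are named here, and the other rises are not. The membrane protease Prss8, which cleaves and activates the epithelial sodium channel, rose by 1.52 ± 0.11 (SE), and Tsc22d3, a glucocorticoid-induced protein, by 1.59 ± 0.15 (SE). Sgk1, a kinase that keeps the sodium channel at the surface, fell by 1.0 ± 0.09 (SE) on the log2 scale. Stk39, a kinase that activates Slc12a2, was at -0.66, a call that was lost on the deposited scale (-0.50), with no dim filter, without nonpermissive replicate 1 (-0.41) and without either permissive array (-0.67 and -0.66). Its second probe set was at 0.06, was not called, and turned to -0.17 with spike-in scaling.

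**Figure D3:**
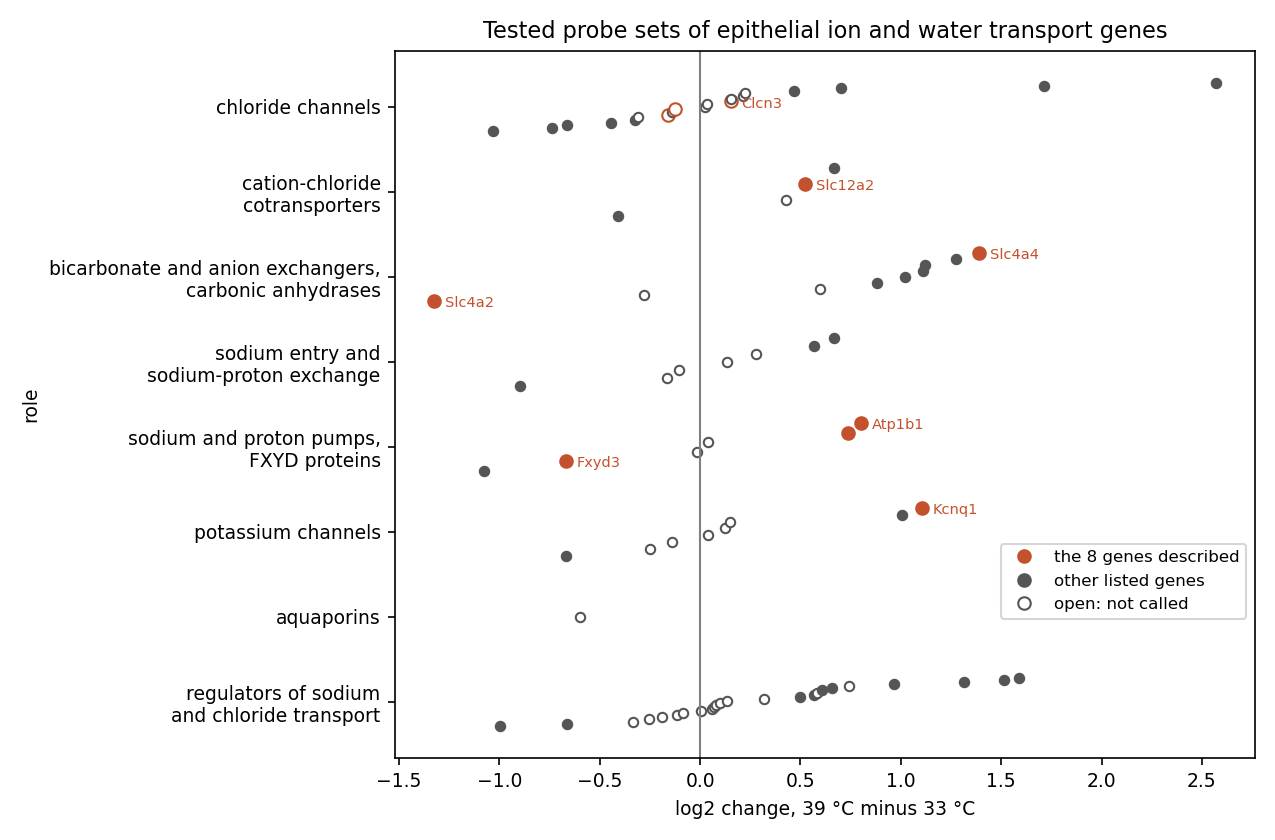
Log2 change from 33 °C to 39 °C (horizontal axis) of the 78 tested probe sets of epithelial ion and water transport genes by role, with the 8 genes in orange and open symbols where the change was not called. Slc4a2 lies at -1.32, apart from the other called probe sets of its role, which lie between 0.88 and 1.39.

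The genes whose pattern over the 4 arrays was nearest to those of Slc4a4 and Slc4a2 were found by the distance between log2 values centred on each probe set's mean, among 8155 tested probe sets with 1 characterised gene symbol. For Slc4a4 they were Prune1, Gfer and Limd2, at distances of 0.09, 0.10 and 0.10. For Slc4a2 they were Bid, Tmem222 and Ptp4a2, at distances of 0.02, 0.02 and 0.07. Slc4a2 had the largest fall of the 8 genes and Slc4a4 the largest rise with 16 added, but with 64 added Slc4a4 (0.93) was below Kcnq1 (1.02). With 4 arrays in 2 groups, this measure picks out little more than a change of like size.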

How the data were processed

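RNA from RTEC11 cells was labelled for Affymetrix arrays, 1 per sample, per the labels' protocols. The authors' deposited values are linear intensities, 1 per probe set and array, and the sources used here do not name the summarising software. Each array has a mean of 500.1 or 500.2 after trimming 2% at each end. The members, gene lists and tests were chosen with earlier results of these data known.

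Values were taken as log2(intensity + 16), which understates changes of dim genes, and quantile normalized without 57 control probe sets, since array medians differed by 0.175 (log2). Genes were named through GEO's platform annotation: 12783 of 15866 probe sets had 1 symbol, 312 several and 2771 none listed. Probe sets with a mean under the 40th percentile were left out as dim. The other 9520 were fitted with limma 3.58.1 in R 4.3.3 (lmFit, eBayes with intensity trend, two-sided, Benjamini-Hochberg), after a test on simulated data. Other transport genes named were, by role, the 2 largest called rises and falls, or else the change of greatest size. The number of arrays limits the precision. Each probe set had 2 residual degrees of freedom, to which limma added a median of 9.23 from probe sets of like intensity. The SEs, intervals and p-values therefore rest mostly on that pooled spread. Replicates correlated at 0.979 and 0.980, against 0.950 to 0.953 between temperatures. Alternatives were other scalings (one to 24 poly-A control probe sets, several of them dim, whose addition the labels do not describe), constants of 1 and 64, dim limits, 1 probe set per gene, no trend, a replicate block and each array left out. Those joining another choice with no dim filter were added after seeing the data, for Slc4a4.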

Additional observations from a re-analysis of the deposited data

How the results depend on the processing

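Of the counts of calls, 80 of 84 values under the alternatives were within 1.5 times the reported count. The other 4 came from scaling the arrays to the spike-in controls, with 1081 probe sets higher and 4371 lower against 2144 and 2350, 4 transporter probe sets lower against 2, and 28 transport list probe sets lower against 13. This scaling shifts every probe set down relative to the deposited scale. Sign changes, among the tested probe sets of the 8 genes, fell in Clcn3, in 1380547_at without permissive replicate 2 (-0.46 to 0.14 over the arrays left out), in 1389652_at without nonpermissive replicate 1 (-0.26 to 0.0069) and in 1392453_at with spike-in scaling (-0.14). Among the other transport genes named, sign changes met probe sets that were not called. With spike-in scaling Stk39 turned to -0.17 in its second probe set and Scnn1b to -0.11. Over the arrays left out, Scnn1b was at -0.091 to 0.36, Atp1b3 at -0.20 to 0.16 and the second Nherf2 probe set at -0.45 to 0.11. Slc4a4 gave no value with 1 added, with the 60th percentile as dim limit, or without either nonpermissive array, because its mean then fell under the limit. With the replicate number as a block 2317 probe sets were higher and 2540 lower, and the transporters were again 5 and 2. Of the named transport genes, the block changed the call of Aqp1 (-0.60, called lower). The numbers are not stated to pair the samples, and same-numbered arrays deviated with a correlation of -0.00604. Leaving out an array gave 1556 to 2082 higher and 1793 to 2144 lower.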
